A study of Mus musculus with 6 samples.

Results

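Secreted Wnt antagonists are proteins that cells release and that keep Wnt ligands from signaling. The 10 genes described here were taken by symbol from a fixed list, of 41126 genes in the RNA-seq table: Sfrp1, Sfrp2, Sfrp4, Sfrp5 and Frzb of the Sfrp family, Dkk1, Dkk2 and Dkk3 of the Dickkopf family, and Wif1 and Sostdc1. All 10 were found, each with 1 identifier. The study asked how stabilized β-catenin alters gene expression in dermal fibroblasts, the cells that build the connective tissue of the skin. It compared 3 Control cultures with 3 gain of function (GOF) cultures, all taken from the ventral skin of CD1, C57Bl6 mice at postnatal day 4. Control cultures carry the genotype label AdGFP; +/+ and GOF cultures AdCre; Ctnnb1 delta-ex3/+. Cre delivered by adenovirus removes exon 3 of Ctnnb1 from 1 allele, and the β-catenin made without it escapes degradation. In the paper's methods the controls are cells of the same mouse line that received a GFP adenovirus, and the age runs from P4 to P7. Virus and β-catenin therefore cannot be told apart between the groups. The labels give 6 h of adCre at 366 to 500 MOI for every culture, Control included. Cells of each animal were grown separately, and 4 animals are named. Of these, 2 gave a culture to both groups, so that Control replicate 0 and GOF replicate 2 share an animal, as do Control replicate 2 and GOF replicate 0. The cultures of each of these animals carry different genotype labels, so the label +/+ cannot stand for the genotype of the animal there.

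In canonical Wnt signaling a Wnt ligand binds a Frizzled receptor together with Lrp5 or Lrp6, and β-catenin then enters the nucleus and acts with Tcf/Lef factors. Sfrp proteins hold a domain related to that of Frizzled and bind Wnts outside the cell, as does Wif1 with a domain of its own. Dkk1 and Dkk2 bind Lrp5 and Lrp6, where Kremen proteins take part in the block, while Dkk3 is a distant member of that family. Sostdc1 binds BMP ligands and Lrp proteins. In skin these factors shape where hair follicles form, and several of them, Dkk1 among them, are known targets of the pathway they inhibit. Stabilized β-catenin acts below all of these proteins.

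The libraries held 35980831 to 42834467 fragments. Axin2, the usual readout of β-catenin activity, lay at 0.144, 0.136 and 0.177 FPKM in Control and at 19.2, 14.4 and 18.7 FPKM in GOF libraries. The targeted gene, Ctnnb1, had a mean level of 267 ± 16.3 FPKM (SD, n = 3) without and 263 ± 28.8 FPKM (SD, n = 3) with GOF, and its exons were not read separately. All 10 fibroblast markers examined had at least 1 FPKM in every library, but Col1a2, Dcn and Fn1 were called lower in GOF libraries. Vim went the other way without overlap (means 798 FPKM in Control and 1339 FPKM in GOF libraries), under a fold change of 2. The other markers of the list overlapped between the groups. The list summed to 4430 to 5320 FPKM in Control and 4100 to 4260 FPKM in GOF libraries, without overlap. Its most abundant genes weigh most in these sums, with S100a4 alone at 1951 FPKM in Control replicate 0. Of 10 keratinocyte markers, Krt5, Krt14, Krt1, Epcam and Trp63 stayed below 0.1 FPKM throughout, whereas Dsp, Perp and Itga6 were called higher in GOF libraries, and the summed level of the list was 12.2 to 15.0 FPKM in Control and 50.4 to 92.3 FPKM in GOF libraries. Of 10 markers of papillary or dermal papilla fibroblasts, 4 were called higher in GOF libraries (Crabp1, Hhip, Dpp4 and Prom1), with summed levels of 81.3 to 119 and 153 to 356 FPKM. Hhip (2, 8 and 16 Control fragments) and Prom1 (24, 5 and 20) entered the test only through their GOF libraries. Crabp1 alone had means of 36.3 FPKM in Control and 162 FPKM in GOF libraries. Of 10 markers of reticular fibroblasts or preadipocytes, 4 were called lower (Pi16, Fabp4, Pparg and Cebpa), with summed levels of 721 to 1120 and 603 to 789 FPKM. Pi16, with 5, 5 and 10 fragments in GOF libraries, entered the test only through its Control libraries. Of 10 skeletal muscle markers, Acta1 was called higher, with summed levels of 24.5 to 29.7 and 139 to 173 FPKM, while Myod1, Myf5, Pax7 and Ckm stayed below 0.1 FPKM. Acta1 made up most of these sums, with means of 24.9 FPKM in Control and 150 FPKM in GOF libraries. Of 10 endothelial markers, Kdr and Esam were called higher and Tek lower, with summed levels of 5.28 to 5.52 and 4.38 to 8.20 FPKM. Esam, with 10, 3 and 8 Control fragments, entered the test only through its GOF libraries. Csf1r of 10 macrophage markers was called higher (14.4 to 24.1 and 11.6 to 29.7 FPKM for the list), as was Cnn1 of 10 pericyte or smooth muscle markers (1740 to 2370 and 2040 to 3700 FPKM), and 10 Schwann cell or melanocyte markers summed to 10.4 to 13.4 and 9.36 to 13.9 FPKM. The part of these shifts in the results was not tested. In such bulk samples fewer cells of a type and less RNA per cell cannot be told apart.

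Fragments were tested with edgeR's quasi-likelihood test over 15462 genes, and calls needed a Benjamini-Hochberg adjusted p under 0.05 together with a more than 2-fold difference. Of the 10 antagonists, 8 had enough fragments to be tested. Dkk1, Dkk2 and Wif1 were called higher and Sfrp4 was called lower in GOF libraries, 3 and 1 genes, where 6.69% of all tested genes were called higher and 5.64% lower. Sfrp1, Sfrp2, Frzb and Dkk3 were not called. Control and GOF levels of the 4 called members lay apart without overlap, as for 39.5% of all tested genes. Dkk1 and Wif1 had under 10 fragments in every Control library and entered the test only through their GOF libraries. The adjusted p-values of members given below are from this edgeR test. With 3 against 3 libraries they weigh each difference against the spread between these cultures. The fit had no term for the animal, although 2 animals gave a culture to both groups.

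**Figure D1:**
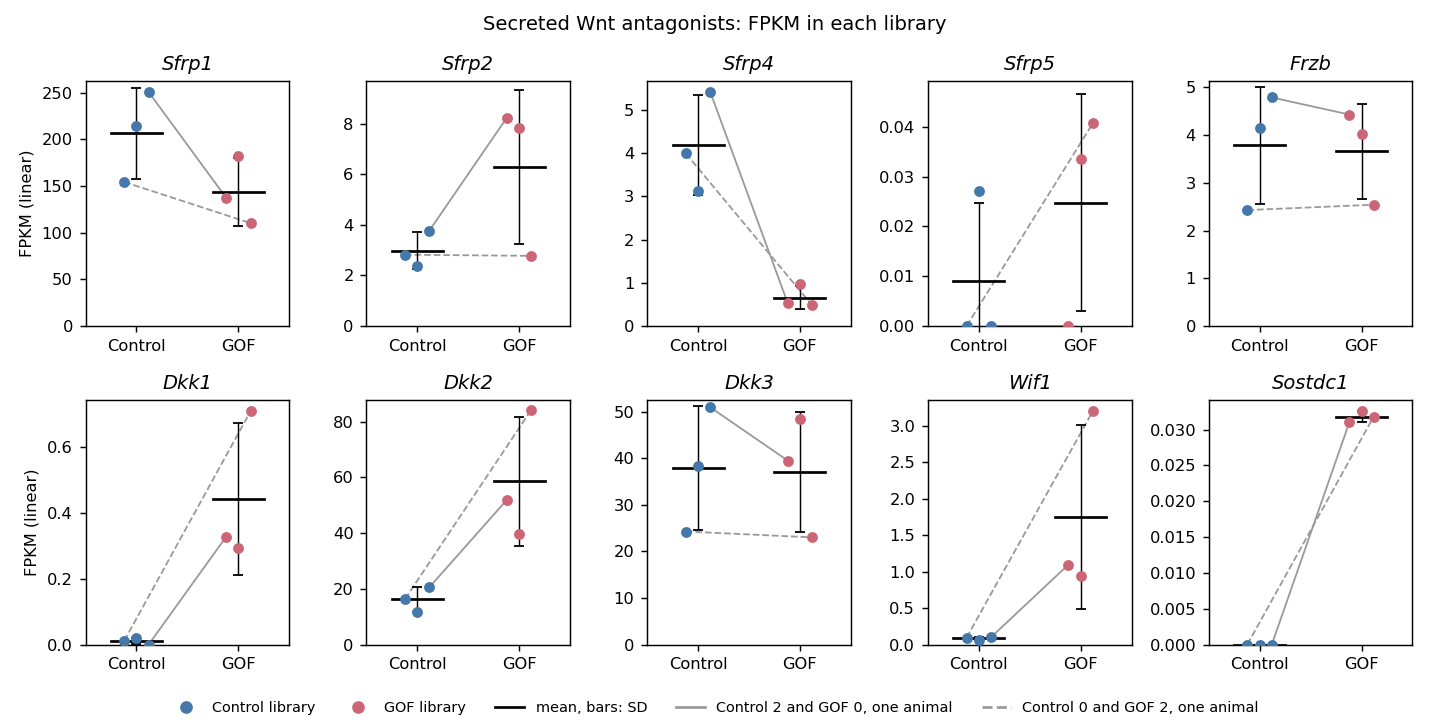
FPKM (linear axes, each from 0) of the 10 antagonists in 3 Control and 3 GOF libraries. Points are libraries, thick lines are means, bars are SD (cut at 0), and grey lines join libraries of the same animal; Dkk1, Dkk2 and Wif1 sit above all Control points in the GOF libraries and Sfrp4 below them.

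Dkk1 and Dkk2 encode the Dickkopf proteins that bind Lrp5 and Lrp6. Dkk2, on chromosome 3 from 132085292 to 132180304 (mm10, plus strand), was the Dkk gene with both a high level and a clear change. It lay at 16.3, 11.8 and 20.6 FPKM in Control and at 52.0, 39.6 and 84.3 FPKM in GOF libraries. The lowest GOF library was above the highest Control library, and GOF replicate 2 was the highest of all. The means were 16.2 ± 4.43 and 58.7 ± 23.1 FPKM (SD, n = 3 each). On the log2 scale Dkk2 rose by 1.83 ± 0.27 (SE, adjusted p = 0.00370). With each library left out in turn it stayed between 1.54 and 2.02 and was called every time.

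Dkk1, on chromosome 19 from 30545863 to 30549665 (minus strand), was near the limit of detection in Control cultures. It had 1, 2 and 0 fragments there and 34, 30 and 69 fragments in GOF libraries, or 0.327, 0.292 and 0.708 FPKM. Every GOF library was above every Control library, and GOF replicate 2 again was the highest. Summed over libraries the ratio of 133 to 3 fragments, after scaling for depth, was 42.9, with an exact 95% interval of 14.4 to 211 that covers counting error only. Its fitted rise was 5.25 ± 0.70 on the log2 scale (SE, adjusted p = 0.00252), a size that depends on the small count edgeR adds to such genes.

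Dkk3, on chromosome 7 from 112116017 to 112159057 (minus strand), was abundant in both groups. It lay at 24.3, 38.3 and 50.9 FPKM in Control and at 39.5, 48.4 and 23.0 FPKM in GOF libraries. The groups overlapped, and the lowest library of each group came from the same animal. The fitted difference for Dkk3 was -0.05 ± 0.33 on the log2 scale (SE, adjusted p = 0.930). Dkk2 stood below Dkk3 in every Control library, with ratios of their FPKM of 0.674, 0.307 and 0.405. In GOF libraries the ratios were 1.32, 0.818 and 3.67, all above those of the Control libraries.

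Wif1, on chromosome 10 from 121033960 to 121100650 (plus strand), encodes an inhibitor that binds Wnts directly. It had 7, 5 and 6 fragments in Control and 98, 80 and 264 fragments in GOF libraries. In FPKM these were 0.0943, 0.0573 and 0.1003 against 1.10, 0.939 and 3.20. All GOF libraries lay above the Control libraries, and GOF replicate 2 was the highest of them. Wif1 rose by 4.52 ± 0.58 on the log2 scale (SE, adjusted p = 0.00212), and the ratio of summed fragments was 23.8 with an exact 95% interval of 14.9 to 40.5 for counting error. When GOF replicate 2 was left out the rise was 3.82 on the log2 scale, the lowest of the fits with a library left out.

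The stretches upstream of the 3 genes that were called higher are shown because these genes moved in the same direction and β-catenin can act with Tcf/Lef factors. Whether such factors had a part in these changes was not tested. The paper reported that predicted Tcf/Lef motifs were not significantly enriched near the start sites of differentially expressed mRNAs. Its search covered a far wider window on both sides of the start site and scored binding profiles, not exact words. The stretches shown are the 250 bases before the RefSeq start site (GRCm38.p6), 5′ to 3′ on the strand of the gene. Capitals mark the Tcf/Lef words, CTTTGAA and CTTTGAT as well as CTTTGTA and CTTTGTT, which were searched on both strands.
Dkk1: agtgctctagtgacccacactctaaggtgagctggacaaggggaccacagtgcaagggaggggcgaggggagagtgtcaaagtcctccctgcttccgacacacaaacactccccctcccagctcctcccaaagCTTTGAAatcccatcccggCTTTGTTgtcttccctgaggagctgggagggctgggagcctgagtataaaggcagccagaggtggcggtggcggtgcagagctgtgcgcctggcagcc
Dkk2: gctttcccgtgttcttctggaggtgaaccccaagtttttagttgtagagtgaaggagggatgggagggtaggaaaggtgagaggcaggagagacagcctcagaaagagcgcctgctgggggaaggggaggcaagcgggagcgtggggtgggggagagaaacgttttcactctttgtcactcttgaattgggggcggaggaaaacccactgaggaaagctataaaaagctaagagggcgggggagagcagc
Wif1: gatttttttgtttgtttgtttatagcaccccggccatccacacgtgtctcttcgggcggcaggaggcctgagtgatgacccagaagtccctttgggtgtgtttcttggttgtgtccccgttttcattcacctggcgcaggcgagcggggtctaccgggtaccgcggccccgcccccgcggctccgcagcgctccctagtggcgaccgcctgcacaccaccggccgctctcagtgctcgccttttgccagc
The Dkk1 stretch, chr19:30549497-30549746 on the minus strand, held 2 of these words, CTTTGAA beginning 117 bases and CTTTGTT 98 bases before the start site. The Dkk2 stretch, chr3:132085042-132085291 on the plus strand, and the Wif1 stretch, chr10:121033754-121034003 on the plus strand, held none of them. The start site of Dkk1 in the GENCODE annotation lies 169 bases upstream of the RefSeq one, so its words fall within the GENCODE transcript, and that of Wif1 lies 44 bases upstream. Of 32851 such stretches over all genes, 14.8% held at least 1 of the words. Stretches of 6 members were searched. Those of Sfrp2 and Frzb, which were not called, and of Sfrp5, which was not tested, held none. The GENCODE start site of Frzb lies 229 bases upstream of the RefSeq one, so most of its stretch falls within the GENCODE transcript. The stretch of Axin2 also held none. A match is only a run of letters, and its absence in this window says nothing of sites elsewhere.

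Among the Sfrp genes, whose proteins bind Wnts with a Frizzled-like domain, Sfrp4 was the one that was called. It lies on chromosome 13 from 19623104 to 19632994 (plus strand). Its level was 3.997, 3.13 and 5.42 FPKM in Control and 0.530, 0.969 and 0.480 FPKM in GOF libraries. All GOF libraries lay well below the Control libraries. The means were 4.18 ± 1.16 and 0.660 ± 0.269 FPKM (SD, n = 3 each), and it fell by 2.68 on the log2 scale (SE 0.34, adjusted p = 0.00202). It was called lower in all 15 alternatives, with log2 fold changes from -3.22 to -1.63.

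Sfrp1 was the most abundant antagonist in every library. It lies on chromosome 8 from 23411502 to 23449632 (plus strand). It had 154, 214 and 251 FPKM in Control and 137, 182 and 110 FPKM in GOF libraries. The groups overlapped, through Control replicate 0 and GOF replicate 1. The means were 207 ± 48.7 and 143 ± 36.5 FPKM (SD, n = 3 each). The difference of -0.53 ± 0.25 on the log2 scale (SE, adjusted p = 0.175) did not pass. With the animal as a replicate block the log2 fold change was -0.69 and the adjusted p from edgeR was 0.0288, still under a fold change of 2. That fit takes the difference only from the 2 animals that gave a culture to both groups.

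Sfrp2 lay at 2.82, 2.35 and 3.77 FPKM in Control and at 8.23, 7.83 and 2.77 FPKM in GOF libraries. GOF replicates 0 and 1 were above all Control libraries, and GOF replicate 2 was within their range. The difference for Sfrp2, 1.05 ± 0.39 on the log2 scale (SE, adjusted p = 0.0993), was not called. Without GOF replicate 2 it was 1.38 with an adjusted p of 0.0113 from edgeR, and with the animal as a replicate block it was 0.56 (adjusted p = 0.252). DESeq2 also called it (log2 fold change 1.06, adjusted p = 0.0314). Sfrp2, on chromosome 3 from 83766321 to 83774316 (plus strand), overlaps the antisense gene Gm26771 on the other strand, from 83773853 to 83789956. Gm26771 had 33, 14 and 46 fragments in Control and 76, 102 and 22 in GOF libraries, and whether the counting used the strand is not given in the sources used here, so fragments of the overlap are uncertain. No other member overlaps an annotated gene.

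Frzb, also known as Sfrp3, lies on chromosome 2 from 80411970 to 80447625 (minus strand). It had 2.43, 4.14 and 4.79 FPKM in Control and 4.43, 4.02 and 2.54 FPKM in GOF libraries. The groups overlapped almost fully, and the difference was -0.15 ± 0.28 on the log2 scale (SE, adjusted p = 0.734). Sfrp5 and Sostdc1 were too low to test. Sfrp5, on chromosome 19 from 42197971 to 42202252 (minus strand), had 0, 2 and 0 fragments in Control and 0, 2 and 3 in GOF libraries. Sostdc1, on chromosome 12 from 36314139 to 36318452 (plus strand), had no fragment in any Control library and 2 in each GOF library. In each single library both genes stayed within the 3 fragments that a count of 0 allows, so no fold change is given.

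**Figure D2:**
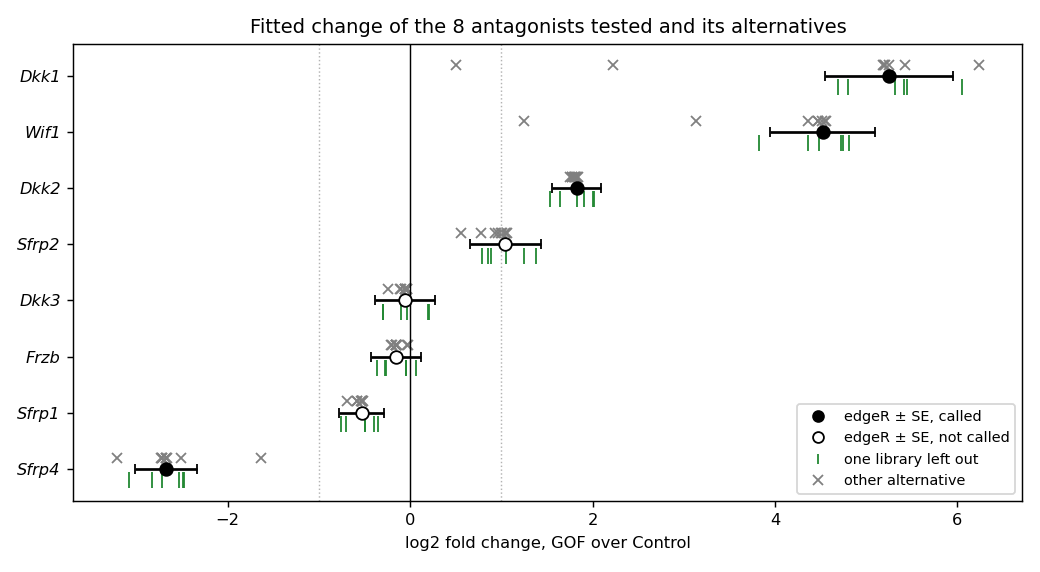
Log2 fold change of GOF over Control for the 8 antagonists tested, with the edgeR estimate and its standard error (circles, filled where called), fits with 1 library left out (green ticks) and the other alternatives (crosses). Dotted lines mark a fold change of 2. Every estimate for Dkk1, Wif1, Dkk2 and Sfrp4 lies on the same side of 0, and those for Dkk3 and Frzb lie on both sides; the 2 crosses of Dkk1 and Wif1 at the left are limma on log2(FPKM + 1) and log2(FPKM + 0.1), scales that understate changes of low genes.

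Comparing levels between genes on the FPKM scale, which is per length, the order in Control libraries was Sfrp1, Dkk3, Dkk2, Sfrp4, Frzb, Sfrp2, Wif1 and Dkk1. The ranges of Sfrp4 and Frzb overlapped, as did those of Frzb and Sfrp2, so these neighbours do not differ beyond their spread. In GOF libraries the order of the means was Sfrp1, Dkk2, Dkk3, Sfrp2, Frzb, Wif1, Sfrp4 and Dkk1. Here Sfrp1 stood apart from Dkk2, and Dkk3 from Sfrp2, while the other neighbours overlapped. The 10 genes summed to 272 ± 66.1 FPKM in Control and 252 ± 29.5 FPKM in GOF libraries (SD, n = 3 each). The difference was smaller than the spread of the Control libraries. The makeup of the sum differed more. Sfrp1 gave 75.6%, 78.2% and 74.6% of it in Control and 56.4%, 64.1% and 48.5% in GOF libraries. Dkk2 gave 7.998%, 4.29% and 6.13% in Control and 21.3%, 13.9% and 37.1% in GOF libraries. Without Sfrp1 the members summed to 65.1 ± 18.4 and 108 ± 7.74 FPKM, and without Sfrp1 and Dkk2 to 48.9 ± 15.7 and 49.8 ± 15.4 FPKM. No test was made on these sums, because the members were chosen with results known.

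**Figure D3:**
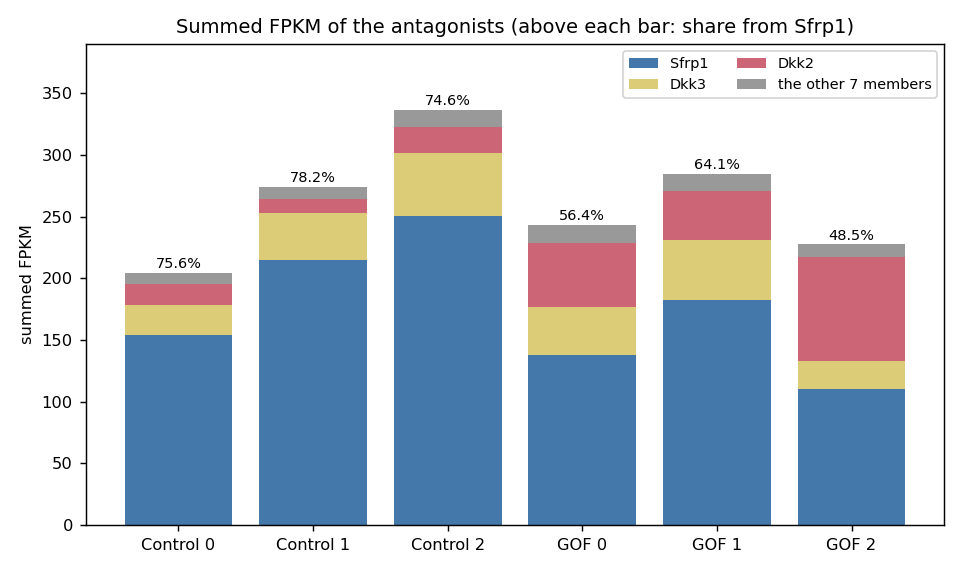
Summed FPKM of the 10 antagonists in each library, stacked by gene, with the percentage that came from Sfrp1 above each bar. The share of Sfrp1 is 74.6% to 78.2% in the Control libraries and 48.5% to 64.1% in the GOF libraries, and Dkk2 fills most of the difference.

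Among GOF libraries, replicate 2 had the highest level of Dkk1, Dkk2 and Wif1 and the lowest level of the other 5 tested members. Its partner from the same animal, Control replicate 0, had the lowest level of Sfrp1, Frzb and Dkk3 among the Control libraries. Within that animal the log2 ratio of GOF over Control FPKM was 2.37 for Dkk2, 5.09 for Wif1 and -3.06 for Sfrp4. Within the other animal with both cultures the ratios were 1.33, 3.45 and -3.35. Sfrp1 was lower in the GOF culture of both animals, with log2 ratios of -0.49 and -0.87. Dkk3 had ratios of -0.08 and -0.37 and Frzb of 0.07 and -0.11, so the low levels of these genes in one animal were present in both of its cultures. Sfrp2 differed between the animals, with a ratio of -0.02 in the first and 1.13 in the second.

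The genes that the antagonists act with were taken from fixed lists. Of 7 other secreted Wnt inhibitors, 3 were tested, and Notum, an enzyme that removes the lipid from Wnts, was called higher. Notum had 0.106, 0.132 and 0.0549 FPKM in Control and 0.851, 1.63 and 2.61 FPKM in GOF libraries, and on the log2 scale it rose by 4.35 (adjusted p = 0.00280). These levels rest on 5, 8 and 3 fragments in Control and 54, 102 and 190 fragments in GOF libraries, so Notum, like Dkk1 and Wif1, entered the test only through its GOF libraries, and a minimum of 1 FPKM in 3 libraries removed it, and with it the only call of the list, from the test. Its groups did not overlap, and GOF replicate 2 was the highest library here too. Draxin (log2 fold change 1.28, adjusted p = 0.144) and Igfbp4 (-0.28, adjusted p = 0.375) were not called. Sost, a relative of Sostdc1, was at 0 in all libraries, and Dkk4, Dkkl1 and Cer1 were too low to test.

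Of 19 Wnt ligands, 8 were tested, with 6 called higher and 1 lower and a median log2 fold change of 2.19, against -0.02 over all tested genes. Wnt2b, Wnt2 and Wnt5a had the smallest adjusted p-values, and Wnt5a had the highest GOF level of these, 56.5, 40.7 and 44.8 FPKM against 11.99, 14.9 and 15.8 FPKM in Control. Its lowest GOF library was far above its highest Control library. The ligands summed to 29.0 ± 3.87 FPKM in Control and 88.1 ± 11.4 FPKM in GOF libraries (SD, n = 3 each). The Frizzled receptors, which Sfrp proteins resemble, divided. Of 9 tested, 3 were called higher and 3 lower, with a median of -0.33. Without Control replicate 0, and with limma on log2(FPKM + 1), only 1 was called higher. Fzd10, 1 of the 3 called higher in the main fit, had 12, 6 and 6 fragments in Control and 79, 17 and 301 in GOF libraries. It entered the test only through its GOF libraries. Fzd4 lay at 4.23, 6.36 and 6.52 FPKM in Control and at 0.690, 0.776 and 0.774 FPKM in GOF libraries. Fzd8 fell by 1.44 (adjusted p = 0.00345) and Fzd1 rose by 1.37 (adjusted p = 0.00532), both on the log2 scale. Fzd1 had the highest Frizzled level in the GOF libraries, at 46.4 ± 3.65 FPKM (SD, n = 3).

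Among 8 tested co-receptors and Dkk receptors, 1 was called higher and 1 lower, with a median log2 fold change of 0.08. Kremen1, the receptor that binds Dkk1 and Dkk2, was the gene called higher. It had 9.22, 10.6 and 10.9 FPKM in Control and 28.7, 28.4 and 21.8 FPKM in GOF libraries, without overlap, and rose by 1.32 on the log2 scale (adjusted p = 9.45e-04). Lrp5, a Wnt co-receptor to which Dkk proteins bind, had 2.57, 3.16 and 3.79 FPKM in Control and 2.06, 1.57 and 1.08 FPKM in GOF libraries. The groups of Lrp5 did not overlap, and it fell by 1.07 on the log2 scale (adjusted p = 0.0184), a call that was lost in 7 of 15 alternatives, among them the fits without Control replicate 1 or 2 and without GOF replicate 1 or 2. Over all of these the log2 fold change of Lrp5 lay between -1.30 and -0.71 and its adjusted p between 4.27e-04 and 0.0643. Lrp6, the other co-receptor, had a difference of -0.85 on the log2 scale (adjusted p = 0.0644) that missed both thresholds, and its groups overlapped. Of 16 Wnt feedback and target genes, 10 were called higher and 1 lower, with a median of 2.65. Lef1, Rnf43 and Sp5, 3 of the 10, had under 10 fragments in every Control library. Tcf7 (7, 8 and 15 Control fragments) and Tnfrsf19 (7, 15 and 4), also called higher, were under 10 in most Control libraries. All of these genes entered the test, and so the count and the median, only through their GOF libraries. With a minimum of 1 FPKM in 3 libraries, 6 genes of this list were called higher. Nkd2 and Apcdd1, inhibitors that act inside the cell and at its membrane, had log2 fold changes of 4.67 and 4.12, next to 6.98 for Axin2 (adjusted p at most 1.70e-04 for these).

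**Figure D4:**
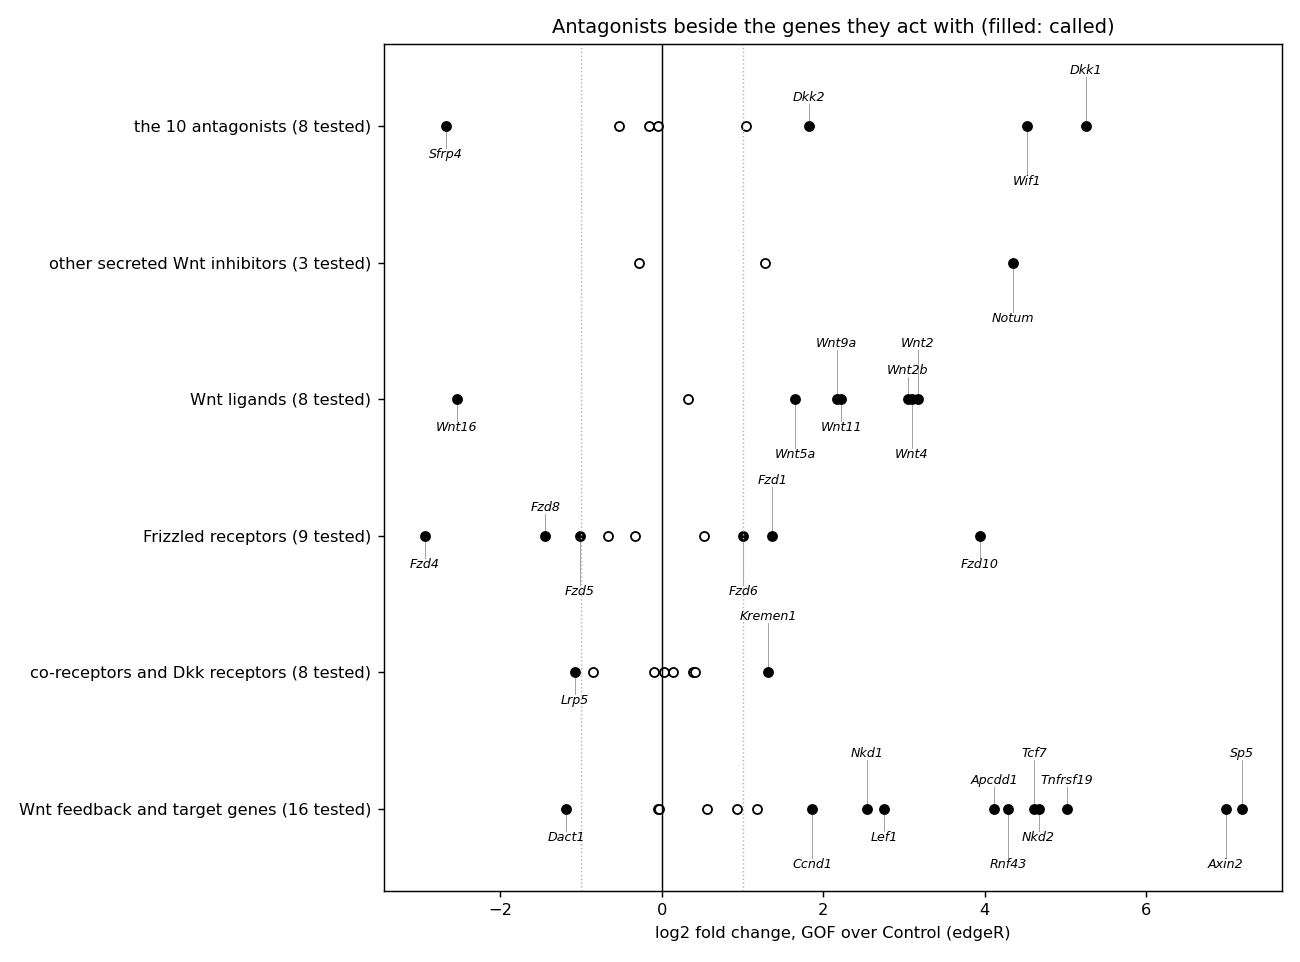
Log2 fold change of GOF over Control (edgeR) for tested genes of each list, filled and named where called; dotted lines mark a fold change of 2. Called antagonists lie on both sides of 0, as do the Frizzled receptors, with 3 called higher and 3 lower; the positions of Dkk1 and Sp5, which had between 0 and 2 fragments in each Control library, depend on the small count edgeR adds.

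The genes most like the leading member in each direction were found by Pearson correlation of log2(FPKM + 1) over the 6 libraries, among 11955 tested genes with a mean of at least 1 FPKM. For Dkk2 these were Rabgef1 (r = 0.995), Pacsin2 (r = 0.993) and Gm20716 (r = 0.993). For Sfrp4 they were Hdac11 (r = 0.999), a histone deacetylase, Rab9 (r = 0.997), a small GTPase of endosomes, and Polr3gl (r = 0.996). The points share 2 groups and a few animals, so these values are a description. Rabgef1 had a log2 fold change of 0.59 and Rab9 of -1.04, smaller than those of Dkk2 and Sfrp4.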

How the data were processed

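RNA-seq of 3 Control and 3 GOF cultures of mouse dermal fibroblasts was used. Libraries were made with a stranded kit and read from both ends, and the authors used TopHat on mm10 followed by Cuffdiff (versions not given in the sources used here). The deposited all-gene table gives estimated counts, which are unscaled fragments per gene and library from the authors' Cuffdiff output, and FPKM, which the authors scaled by length and between libraries. Further columns of scaled fragments (2) were not used, and a separate lncRNA table was not used here. Cuffdiff marked 32 genes as failed in at least 1 library, and these were left out. Symbols and positions came from GENCODE M21 (GRCm38, equal to mm10), where 97.9% of identifiers were found.

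Estimated counts were rounded (4.95% were not whole) and fitted in R 4.3.3 with edgeR 4.0.16 (filterByExpr, TMM, quasi-likelihood test, Benjamini-Hochberg over all 15462 genes tested, without a pairing term). Standard errors were taken as the log2 fold change over the square root of F. limma 3.58.1 and DESeq2 1.42.0 were alternatives. Depth was 35980831 to 42834467 fragments per library, and intervals cover counting error only. FPKM of single genes compared with an exact permutation test, two-sided, cannot give a p below 0.1 with 3 against 3 libraries, the value found for the called members. Pairing was checked on deviations from the group means, whose correlation was 0.408 and 0.460 for the 2 pairs of libraries from the same animal, -0.441 to 0.054 for the 3 pairs with the same label number and -0.441 to 0.116 for the 7 pairs from different animals. The scripts were tested on simulated data. The members and lists were chosen with earlier results of these data known, and so were the tests. All 10 members are named; of each other list, up to 3 called genes with the smallest adjusted p, and every tested gene among the other secreted inhibitors. The 3 genes most correlated with the most abundant member called higher, and likewise lower, are also named. Lrp6, Sost, Dkk4, Dkkl1, Cer1, Lef1, Rnf43, Sp5, Tcf7, Tnfrsf19, Fzd10 and single markers were named after their values were seen.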

Additional observations from a re-analysis of the deposited data

How the results depend on the processing

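Leaving out 1 library at a time, changing the normalization, filter or tool, or adding a replicate block kept the direction of Dkk1, Dkk2, Wif1 and Sfrp4. Dkk2, Wif1 and Sfrp4 were called in every alternative that tested them, and Dkk1 in all but limma on log2(FPKM + 1), where its log2 fold change was 0.50 (adjusted p = 0.0183). A minimum of 1 FPKM in 3 libraries left 1 member called higher, since Dkk1 and Wif1 were then not tested. Sfrp2 was also called with DESeq2 and in the fit that lacked GOF replicate 2. With a library left out, Dkk3 ranged from -0.30 to 0.20 and Frzb from -0.36 to 0.064 on the log2 scale, so neither has a settled direction. limma on log2(FPKM + 1) called 877 genes in all against 1906, and the replicate block by animal, with 1 residual degree of freedom, 2008. That block called the same number of members in each direction, 3 and 1, and the block by label number did as well. The block by animal rests on the 2 animals with both cultures, and the label numbers match cultures of different animals. The log2 ratio of the summed FPKM of the members was -0.11, between -0.28 and 0.07 with a library left out. Dkk1, Wif1, Sfrp5 and Sostdc1 are limited by depth in Control libraries. The cause of these changes was not tested beyond what the settings themselves remove.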
